A study of Mus musculus with 2 samples.

Results

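Mir126a is the mouse gene of the microRNA miR-126, and it is 1 of the 1973 annotated miRNA genes counted here. Its row was taken by gene identifier (ENSMUSG00000065540.1) from the deposited table of each library, with the reads on its own strand (sense counts) as its level and the reads on the opposite strand as the counts that match the overlapping gene Mir126b. The samples were 2 small RNA libraries (fragments under 30 nucleotides) of whole liver at embryonic day 15.5, from healthy, unmanipulated B6NCrl mice with both sexes pooled. Replicate 1 pooled 78 embryos and replicate 2 pooled 62, both are numbered by the submitters as biological replicates, and there is no second condition. The sense counts of all miRNA genes summed to 5529166 in replicate 1 and 3169882 in replicate 2, and 352 genes were detected, that is, had at least 10 sense counts in both libraries.

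A miRNA gene is transcribed as a longer RNA that folds back into a hairpin. The hairpin is cut to a short duplex, and a strand of that duplex guides an Argonaute protein to mRNAs that pair with the seed, bases 2 to 8 of the mature miRNA. miR-126 is the best known endothelial miRNA: it is made from an intron of Egfl7, which encodes a protein secreted by endothelial cells, and it sustains VEGF signalling by repressing inhibitors such as Spred1. Mice that lack it have fragile, leaky vessels. It is also made by haematopoietic stem cells and megakaryocytes, which the fetal liver contains beside its sinusoidal endothelium. In whole tissue the source cell is not resolved, and fewer cells of a type cannot be told apart from less RNA per cell.

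The sequences below show the counted hairpin and its antisense partner, because the strands of this locus can each form a miRNA. They are from RefSeq on GRCm38.p6, written 5′ to 3′. Capitals mark mature sequence in the hairpins, where RefSeq lists it, and the seed in the mature forms. The RefSeq sequences used have no entry for miR-126a-5p. That arm is therefore in small letters within the Mir126a hairpin, and its sequence and seed were not searched.
Mir126a hairpin: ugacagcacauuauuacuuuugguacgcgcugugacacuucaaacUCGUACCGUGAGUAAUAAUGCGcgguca
Mir126b hairpin: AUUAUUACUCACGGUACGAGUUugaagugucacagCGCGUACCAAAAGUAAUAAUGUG
miR-126a-3p: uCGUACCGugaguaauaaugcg
miR-126b-5p: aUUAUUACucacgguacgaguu
miR-126b-3p: cGCGUACCaaaaguaauaaugug
The Mir126a hairpin lies on the plus strand at chr2:26591357-26591429, and miR-126a-3p at chr2:26591402-26591423. The Mir126b hairpin of 58 bases lies on the minus strand at chr2:26591363-26591420, wholly inside the 73 bases of Mir126a, and is the exact reverse complement of the shared bases. miR-126a-3p occurred in 1 hairpin of the 1005 in the RefSeq table, its own, on either strand, and it was the 1 mature form of 1738 with the seed CGUACCG. Mature sequence that several loci share is lost from these counts as mapping to several places, and by this search miR-126a-3p is not shared.

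The seed of miR-126a-3p has few matches in mRNAs. The complement of bases 2 to 8, CGGTACG on the mRNA strand, contains CpG at 2 places and was found in annotated 3′ untranslated regions of 39 of 21020 protein-coding genes (0.186%). That was the lowest share of the 1398 distinct seeds in the RefSeq table, whose median was 10.9% and whose next lowest was 0.219%. The seed of miR-126b-3p holds the same CGUACC displaced by 1 base, and its complement GGTACGC was found in 0.514% of genes. The seed of miR-126b-5p, with the complement GTAATAA, was found in 11.9%. A weaker kind of match to miR-126a-3p, GGTACGA (bases 2 to 7 followed by an A), overlaps CGGTACG by 6 bases and was found in 0.785% of genes.

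Known targets were searched for both matches, and the sites found are shown with the match in capitals.
Spred1: tttaactaaatgtaaGGTACGA
Vcam1: ctacatggtactgtaCGGTACG
The Spred1 site lies at chr2:117178445-117178466 (plus strand) and the Vcam1 site at chr3:116110245-116110266 (minus strand), both on GRCm38. Spred1 encodes an inhibitor of Ras signalling and Vcam1 an adhesion molecule for leukocytes. Neither match was in the annotated 3′ untranslated regions of Pik3r2, a regulatory subunit of PI3 kinase. A match is a description of sequence, and no mRNA was measured in these libraries.

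The hairpin sits in a short intron near the end of its host gene. Egfl7 (ENSMUSG00000026921.18) spans 26580014 to 26593120 on the plus strand of chromosome 2, and 9 of its 19 annotated transcripts span the hairpin. In 8 of these Mir126a is intronic. In 6 of the 8 the intron is 600 bases long, with 293 bases before the hairpin and 234 after it, and it is intron 7 of Egfl7-201, Egfl7-202, Egfl7-204 and Egfl7-212. In the retained-intron transcript Egfl7-206 the hairpin is exonic. A second protein-coding annotation on the same strand, Gm20532, also spans the hairpin.

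**Figure D1:**
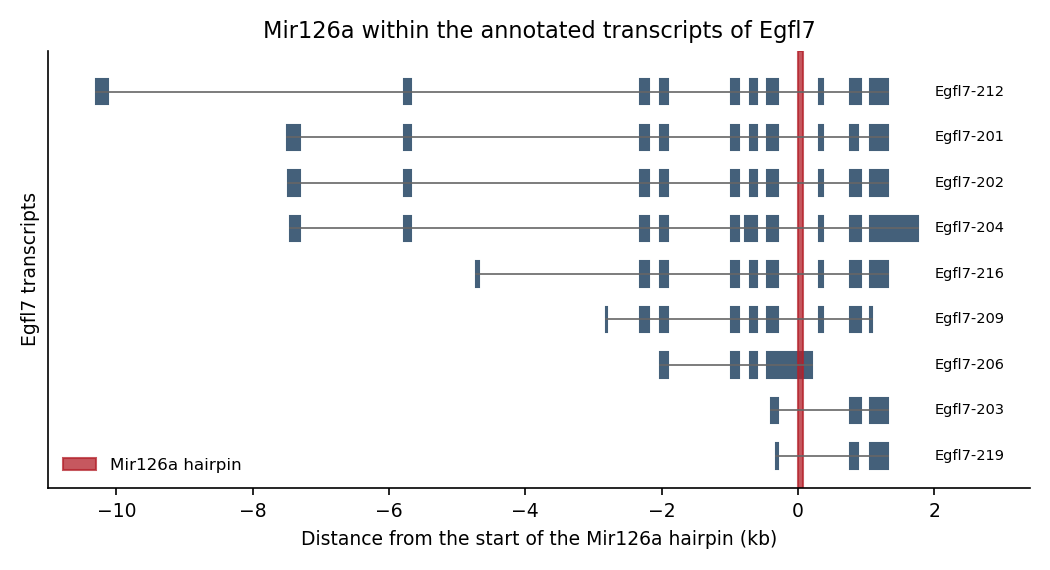
The 9 annotated Egfl7 transcripts that span Mir126a, one per row, with exons as boxes and introns as lines, against distance from the start of the hairpin in kb (negative is upstream). The red band is the hairpin, which falls between exons in 8 transcripts and inside an exon of Egfl7-206.

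Mir126a stands alone on its stretch of chromosome. Of the miRNA genes counted, the nearest was Mir6996, 121 kb away on the other strand, with 2 sense counts in replicate 1 and 1 in replicate 2. The nearest detected gene was Mir199b, 5727 kb away, with 704 sense counts in replicate 1 and 398 in replicate 2. No neighbour came near the level of Mir126a.

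By uniquely mapped reads, Mir126a was among the most abundant miRNA genes of the fetal liver. It had 247775 sense counts in replicate 1 and 138163 in replicate 2. Per 1000000 sense counts (CPM), replicate 1 had 44812 and replicate 2 had 43586, a mean of 44199 ± 867 CPM (SD, n = 2). Its share of sense counts was 4.48% in replicate 1, with an exact 95% interval from 4.46 to 4.50%. In replicate 2 the share was 4.36%, with an interval from 4.34 to 4.38%. The libraries lay close together relative to the range of levels, in which detected genes reached down to 2.66 CPM. Of the sense counts other than those of Mir122, the hepatocyte miRNA, Mir126a held 5.36% ± 0.168. Of all reads in the table, including those unmapped or mapped to several places, it held 1.66% ± 0.0390.

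By mean level it ranked 3, behind Mir122 at 175539 ± 9614 CPM and Mirlet7g at 55446 ± 3032 CPM. In replicate 1 it ranked 3, and in replicate 2 it ranked 4. Mir26b, in an intron of Ctdsp1, had 42671 CPM in replicate 1 and 44125 in replicate 2. The order of Mir126a and Mir26b therefore changed between libraries, and their values overlap. Mirlet7g, at 53303 and 57590 CPM in replicates 1 and 2, was above Mir126a in both. Mir335, an intronic miRNA of the imprinted gene Mest, had 33894 and 41467 CPM, below both values of Mir126a. Mir17, at 31642 and 33577 CPM, was lower again, and Mir126a was 1.42 times its level in replicate 1 and 1.30 times in replicate 2. Ranks 3 and 4 in the respective libraries held when each locus was ranked by the larger of its strand counts. Reads mapped to several places, 29.3% of all reads in replicate 1 and 31.1% in replicate 2, count toward no gene. Genes whose mature sequence several loci share are therefore counted low, while miR-126a-3p is not shared. Its rank, and its ratios to the lists below that hold such genes, may be too high for this reason. Of the 352 detected genes, 167 lie on the same strand within a protein-coding gene, and Mir126a was the second of these, after Mirlet7g in Wdr82.

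**Figure D2:**
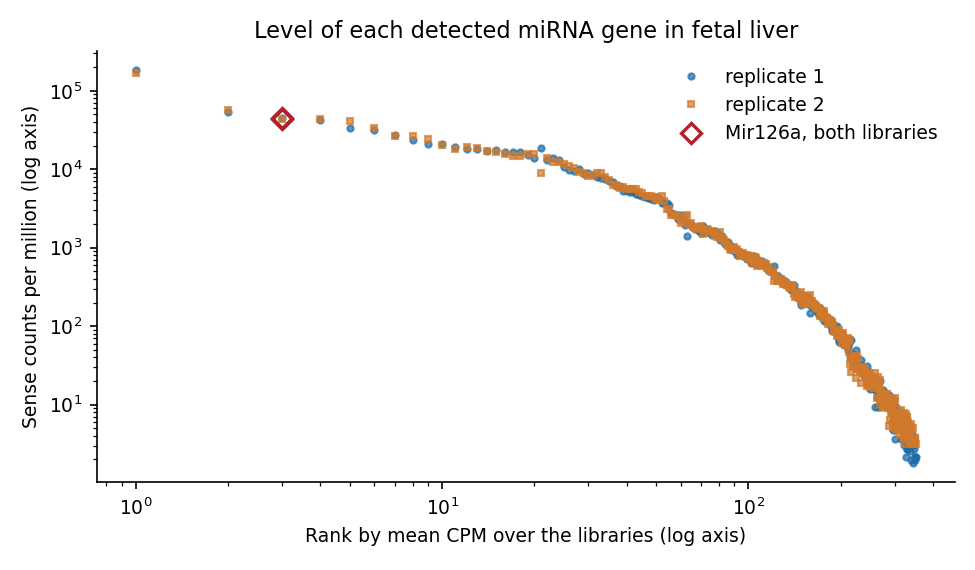
Sense CPM (log axis) of the 352 detected miRNA genes against rank by mean CPM (log axis), with circles for replicate 1 and squares for replicate 2. Both values of Mir126a, 44812 and 43586 CPM, fall inside the diamonds at rank 3, under Mir122 and Mirlet7g.

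Opposite-strand reads at the Mir126a locus were few. They numbered 134 in replicate 1 and 61 in replicate 2. For each of these reads there were 1849 sense reads in replicate 1 and 2265 in replicate 2. Their share of the reads at the locus was 0.0541% in the first library, with an exact 95% interval from 0.0453 to 0.0640%, and 0.0441% in the second, with an interval from 0.0338 to 0.0567%. The mean was 0.0491% ± 0.00702 (SD, n = 2). If all of them came from Mir126b, its level on the scale of sense totals would be 24.2 CPM in the deeper library, replicate 1, and 19.2 CPM in replicate 2. The intervals overlap, and the difference in share did not pass Fisher's exact test (two-sided, Benjamini-Hochberg adjusted p = 0.367 over 15 genes). Of those 15 genes 0 passed (0.0%), and 5 had an unadjusted p under 0.05.

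Counts of 134 and 61 are nevertheless more than most abundant genes had. Of 26 detected genes with at least 10000 CPM, Mir126a included, 20 had no opposite-strand read in either library. For Mirlet7g, a count of 0 allows a share of up to 0.00102% in replicate 1 and 0.00164% in replicate 2. The other 5 genes with any such reads are named after their values were seen. Mir130a, a miRNA of haematopoietic progenitors, had 77 and 43, a share of 0.0801% ± 0.00224. Mir335 had 7 and 3, Mir122 had 2 and 3, and Mir127 and Mir451a had 1 and 0. Mir126a and Mir130a thus stood apart from the other abundant genes, and Mir130a has no miRNA annotated on its other strand in release M21.

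Mir126a is 1 of 14 detected genes with a miRNA annotated on the opposite strand. Their shares ran from 0% at Mir30e, Mir24-2 and Mir539 to 99.8% at Mir299b. Of the 14, Mir451a, which overlaps Mir451b, was also below Mir126a. Among all 351 other detected genes, 22 had a higher share than Mir126a and 319 had no opposite-strand read. Of the 9 genes with at least 10 counts on each strand in both libraries, whether or not a partner is annotated, the next above Mir126a were Mir130a, Mirlet7b at 0.350% ± 0.0195 and Mir337, which overlaps Mir3544, at 0.610% ± 0.115. Mir299b, the 1 gene of the 9 with more opposite-strand than sense counts, had 50 and 21 sense counts against 20768 and 13141 on the strand of Mir299a. The strand balance at Mir126a is therefore the reverse of that at Mir299b: almost every read is from the annotated gene. Mir299b is not the only reversed locus, since the minimum of 10 sense counts leaves others out. Mir142b had 1 and 0 sense counts against 193651 and 131496 on the strand of Mir142. Opposite-strand counts summed over every counted gene came to 531453 in replicate 1 and 318094 in replicate 2. Of these, 21678 and 13606 were at the 351 other detected genes.

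**Figure D3:**
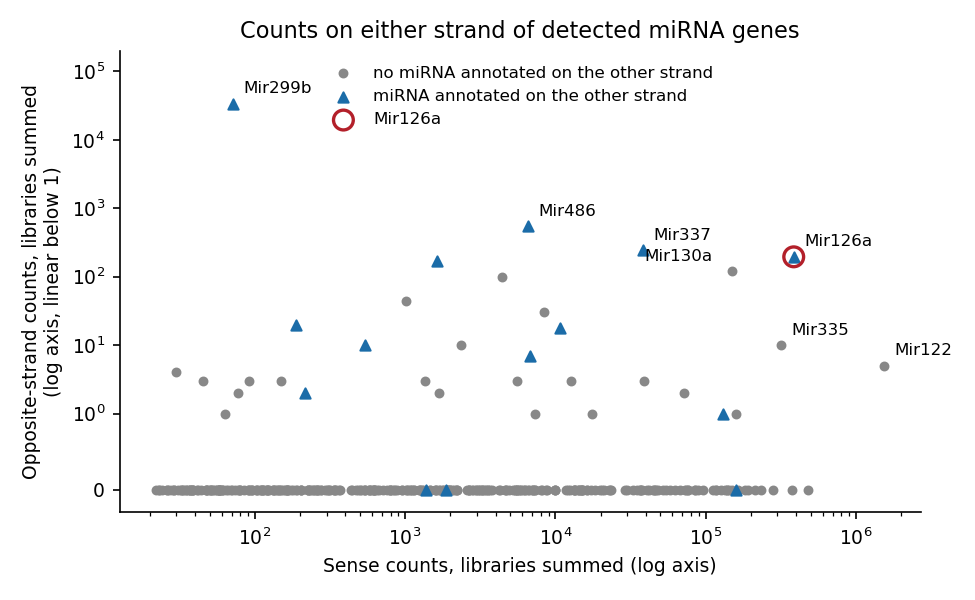
Opposite-strand counts (log axis, linear below 1) against sense counts (log axis), libraries summed, for the 352 detected genes. Triangles have a miRNA annotated on the other strand, and the ring marks Mir126a, far to the right and above the row of genes with 0 opposite-strand counts.

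The locus reads alike on both strands, which is why the following pair of sequences is shown. miR-126a-3p was laid without gaps on the strand opposite its own hairpin, and capitals mark the bases that differ.
miR-126a-3p: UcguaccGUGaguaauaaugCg
opposite strand: GcguaccAAAaguaauaaugUg
The best placing, at chr2:26591363-26591384, falls within miR-126b-3p (chr2:26591363-26591385, minus strand) and differed at 5 of 22 bases. Counted from the 5′ end of miR-126a-3p, these were U1G, G8A, U9A, G10A and C21U. The identity was 77.3%, against a median of 65.2% over the other 544 mature forms of detected genes in the RefSeq table, of which 66 were as high or higher. miR-335-3p, in a hairpin with 7 and 3 opposite-strand counts, had 2 differing bases of 22. Mir130a, Mirlet7b and Mir337 were the next above Mir126a in opposite-strand share. Of their mature forms, miR-130a-5p, let-7b-5p, let-7b-3p and miR-337-3p each differed at 5 of 22 bases. The other forms, miR-130a-3p and miR-337-5p, differed at 7 and 6. Abundant genes with few or no opposite-strand counts had forms as alike. At Mir322, with 0 such counts in both libraries, miR-322-5p differed at 5 of 22 bases. At Mir451a, with 1 and 0, miR-451a differed at 4 of 22. The part of this likeness in the opposite-strand counts was not tested.

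Between the libraries Mir126a was slightly lower in replicate 2. Its log2 ratio, replicate 2 over replicate 1, was -0.08 after TMM scaling, a 1.05-fold difference. It passed the exact conditional binomial test (two-sided, Benjamini-Hochberg adjusted p = 1.26e-54), which compares the 2 libraries and covers counting error only. Of 456 genes tested, 178 passed (39.0%), and of the 187 with at least 100 CPM, 116 passed (62.0%), so the call is the usual one for an abundant gene. The difference of Mir126a was smaller than the median absolute log2 ratio of those 187 genes, 0.11, and well inside their SD of 0.20. Of the 187 genes, 66 lay nearer to 0.

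Likeness to Mir126a was measured as the gap in log2 ratio, over 2 libraries, among the 7 other genes within 2-fold of its mean level. The nearest was Mir411, from the imprinted Dlk1-Dio3 domain, with a log2 ratio of -0.09 and levels of 27425 and 26361 CPM. It was followed by Mir26b (0.01) and Mir17 (0.05). With 2 libraries this is a single difference per gene, and genes with a like ratio need share nothing else.

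**Figure D4:**
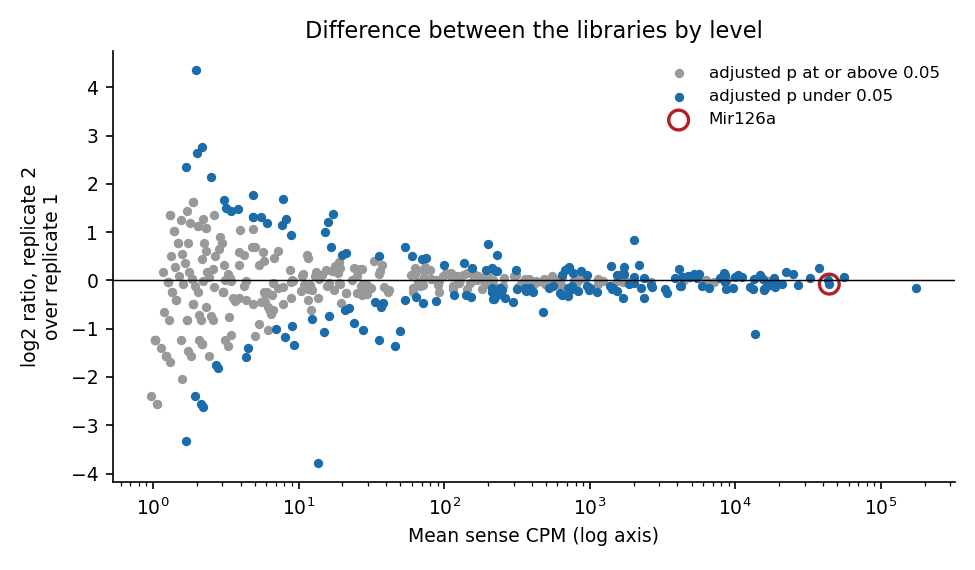
The log2 ratio of replicate 2 over replicate 1 against mean sense CPM (log axis) for tested genes with counts in both libraries, blue where the adjusted p was under 0.05. The ring marks Mir126a at -0.08, close to the line at 0, with most abundant genes around it called as well.

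Mir126a was the higher of the measured miRNAs listed here for endothelium, a list that contains it. The list had 2 measured members, since Mir126b is not among the 1973 genes, and Mir126a made up 0.882 ± 0.00250 of its counts. The other, Mir139 in Pde2a, stood at 6121 CPM in replicate 1 and at 5755 in replicate 2. Mir126a was 7.32 times as high as Mir139 in replicate 1 and 7.57 times in replicate 2. Both were lower in replicate 2 past the threshold, with a median log2 ratio of -0.10 against -0.04 over all genes tested, and 20.8% of all genes were called lower.

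MicroRNAs known for roles in vessel growth reached lower single levels. The angiogenesis list had 18 measured members and 17 detected, which together held 7.60% ± 0.184 of sense counts, so that Mir126a alone came to 0.582 ± 0.0254 of their sum. Its highest members were Mir322 at 22429 ± 2237 CPM, Mir130a at 17155 ± 163 CPM and Mir23a at 12704 ± 634 CPM. Mir126a was above each of these in both libraries, at 2.15 and 1.82 times Mir322. The hypoxia-induced Mir210 stood at 643 ± 31.5 CPM, and Mir221 and Mir222, which restrain angiogenic signalling through Kit, at 349 ± 1.46 and 171 ± 10.7 CPM. Of 17 members tested, 4 were higher and 4 lower in replicate 2. Over all genes 39.0% were called, and 62.0% of genes with at least 100 CPM, a level that most members reached. The median log2 ratio of the members was 0.00232 against -0.04 over all genes. In the mural list of vessel wall and stromal miRNAs, Mir143 led at 15632 ± 1191 CPM, followed by Mir214 at 866 ± 95.8 and Mir145a at 216 ± 37.5 CPM. Mir126a was 2.65 ± 0.127 times the whole list.

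Other cell types of the organ were set beside Mir126a in the same way. It was 0.235 ± 0.00840 times the hepatocyte list, which Mir122 leads ahead of Mir101b (6582 ± 409 CPM) and Mir192 (3298 ± 222 CPM). The stem and progenitor list, for cells that can also make miR-126, was led by Mir99a at 15698 ± 1034, Mir99b at 6253 ± 152 and Mir100 at 1537 ± 138 CPM. Mir126a was 1.75 ± 0.0381 times that list. It was 2.17 ± 0.0658 times the leukocyte list as counted, led by Mir223 (18838 ± 901 CPM), Mir342 and Mir146. That list lacks Mir142 because its reads are on the opposite strand of the counted gene Mir142b. With those reads added, Mir142 would lead the list, and the list would exceed Mir126a in both libraries. The ratio to the erythroid list differed most between libraries, at 1.65 in replicate 1 and 2.35 in replicate 2. In that list Mir451a had 18658 and 8843 CPM, while Mir144 had 7777 and 8918 CPM and Mir486 715 and 818 CPM.

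The slightly lower level of Mir126a in replicate 2 came with lower shares of several of these lists. Over all 456 genes tested 20.8% were called lower and 18.2% higher in replicate 2, and 62.0% of genes with at least 100 CPM were called in either direction, so the small counts of members that follow are read against these. The hepatocyte list held 19.6% of sense counts in replicate 1 and 18.1% in replicate 2, with 7 of 7 members called lower in replicate 2. The leukocyte list held 2.11% and 1.97% (3 of 6 called lower, 0 higher), and the stem and progenitor list 2.61% and 2.46% (2 of 7 lower, 0 higher, near that background). For the mural list these were 1.75% and 1.59% (2 of 5 lower, 1 higher), and for the erythroid list 2.71% and 1.86% (1 of 3 lower, 2 higher). Of the lists as counted, the angiogenesis list was the exception, at 7.47% and 7.73%. The leukocyte list leaves out Mir142, whose reads fall on the strand opposite Mir142b and outnumber the sense counts of every member. With those reads added, the leukocyte share would be higher in replicate 2, not lower. Of the measured members of these lists, Mir218-1 of the angiogenesis list was at 0 in replicate 2, and no other was at 0 in either library. The part of cell makeup in the difference of Mir126a was not tested.

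**Figure D5:**
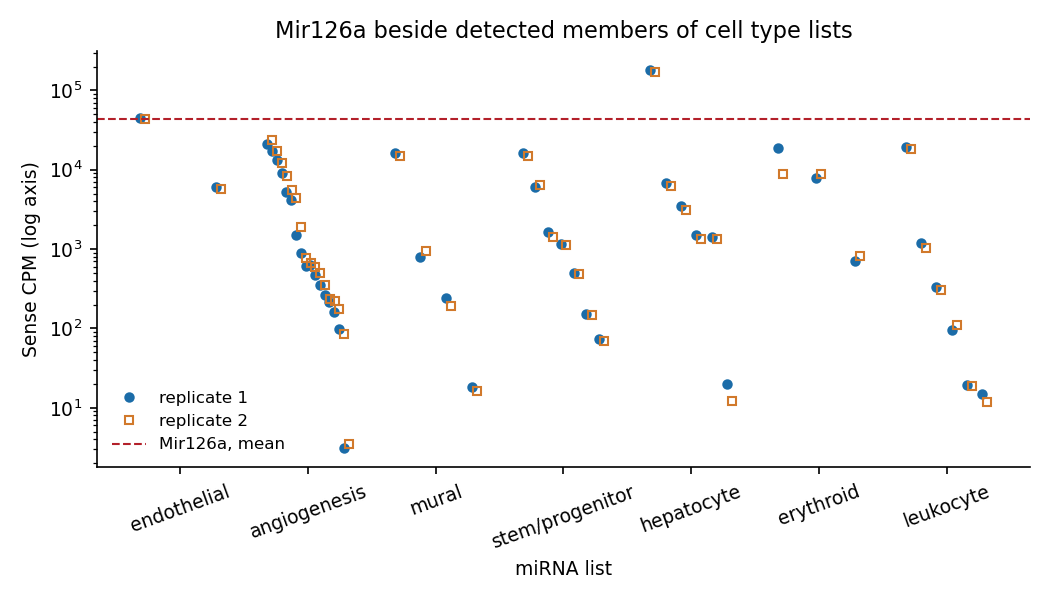
Sense CPM (log axis) of the detected members of 7 miRNA lists in each library, with filled circles for replicate 1 and open squares for replicate 2. The dashed line is the mean of Mir126a, 44199 CPM, and Mir122 of the hepatocyte list is the 1 other member above it.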

How the data were processed

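Each deposited file holds unnormalized read counts for annotated miRNA genes of a library, split by strand relative to the gene and as a sum. Assembly mm10 and annotation release M4 were used, per the file headers of the accompanying text. The aligner and counter are not given in the sources used. Of all reads 29.3% in replicate 1 and 31.1% in replicate 2 mapped to several places, and 23.9% and 21.4% were unmapped; these entered no library size. Symbols and positions came from GENCODE release M21 (GRCm38), which matched 1894 of 1973 identifiers. CPM uses sense totals. A count of 0 allows 3 counts. Intervals are Clopper-Pearson and, without molecular identifiers, cover counting error only.

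Genes with at least 10 counts over both libraries were compared between them by a conditional binomial test (exact, two-sided), on sizes scaled by TMM (edgeR 4.0.16, factors from the detected genes), with Benjamini-Hochberg adjustment and a threshold of 0.05. They differed beyond sampling noise (chi-square per degree of freedom 68.6, 455 degrees). DESeq2 1.42.0 gave alternative size factors. Strand shares were compared by Fisher's exact test on genes with at least 10 counts of each strand. Tests were tried on simulated counts with Poisson noise only. That trial does not show how they behave at the spread between these libraries. Sequences were matched by symbol; 304 of 352 detected genes had a hairpin. Folding used RNAfold 2.7.2. Seed matches were searched on the mRNA strand in all annotated 3′ untranslated regions of a gene. The genes named were Mir126a, the nearest 3 in level, strand share and log2 ratio, the nearest on the chromosome and the 3 highest of each list. Mir210, Mir221 and Mir222 were added as background, and the targets from knowledge of the miRNA. The members and lists were chosen with earlier results of these data known.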

Additional observations from a re-analysis of the deposited data

How the results depend on the processing

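The level of Mir126a depended on the denominator: it was 40267 CPM with unstranded counts, 40249 CPM over totals that also hold the counts opposite to a gene with an annotated partner there, 16618 per 1000000 of all reads in the table and 53620 CPM without Mir122 in the total. With TMM or DESeq2 scaling it moved by less than the SD of the libraries, and leaving out a replicate gave 43586 to 44812 CPM. The log2 ratio between libraries kept its sign and stayed past the threshold in all 7 alternatives, 2 of them chosen after seeing the data, at -0.08 to -0.04 with a largest adjusted p of 1.40e-15 (exact binomial test); the number of genes called ranged from 161 to 185. The opposite-strand share was 0.0441 to 0.0541% without either replicate. Its difference between libraries stayed short of the threshold with both other minimums (Fisher's exact test, adjusted p 0.257 and 0.877). No paired analysis was possible because there is 1 group. With 2 libraries, leaving 1 out gives no ratio between them. Depth limits the opposite-strand share, which rests on 134 and 61 reads, and arms of the hairpin are not separated.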

Other observations

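The strands of the Mir126a hairpin were also folded in silico, since either must fold back to be processed. The predicted minimum free energy of the 73 bases was -31.2 kcal/mol on the counted strand, or -0.43 per base, near the median of -0.44 over the other detected genes with a hairpin. The opposite strand of the same bases gave -34.2 kcal/mol, or -0.47 per base, against a median of -0.36 over the opposite strands of the other hairpins, 50 of which were lower. The shorter annotated Mir126b hairpin of 58 bases gave -19.3 kcal/mol, or -0.33 per base, which is weaker than the Mir126a hairpin. The order of the predicted energies thus depends on which bases of the opposite strand are folded.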
